A study of Mus musculus with 7 samples.

Results

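The genes described here are 35 reported or conserved targets of the let-7 microRNAs, out of 24084 genes listed in at least 1 library of the series. They were chosen by name as known let-7 targets, by a rule that uses no measured value, although the list was drawn up with earlier results of these data known. Total RNA was sequenced from F4/80+ tumor-associated macrophages sorted from subcutaneous Lewis lung carcinomas (LLC, a transplantable mouse lung tumor line) grown in mice of either of 2 genotypes. The Dicer1-deleted group (LysM-Cre;Dicer–/–, 3 libraries) carried homozygous LysM-Cre, which expresses Cre recombinase from the lysozyme M locus of myeloid cells, together with homozygous floxed Dicer1. The control group (LysM-Cre; Dicer+/+, 4 libraries) was also homozygous for LysM-Cre, so the Cre allele was shared by both groups. The tumor cells themselves carried no stated Dicer1 deletion. The labels used here give no age, no statement of whether animals were pooled, and no separate animal for each library, so the p-values reflect only how far the libraries scatter, which may be technical. The series title places the comparison in the setting of macrophage polarization and the response of tumors to immunotherapy.

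let-7 microRNAs are small RNAs that are cut from hairpin precursors by DICER, the enzyme encoded by Dicer1, and loaded into Argonaute proteins. A loaded let-7 pairs through its seed, bases 2 to 8 from the 5′ end, with sites in the 3′ UTRs of messenger RNAs and lowers their stability and translation. The family is known for rising during differentiation and for keeping fetal growth genes, cell cycle genes and RAS pathway genes low in adult cells. LIN28 proteins block its maturation, and LIN28B messenger RNA is itself a let-7 target. Mature let-7 was not measured in the files used here, so what follows describes the target messenger RNAs.

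The mature sequences show what the targets are matched against. RefSeq (GRCm38.p6) holds 11 differently named mature let-7 and miR-98 sequences of the mouse, and 10 of them share the seed GAGGUAG, while let-7j has GAGGUAU. The sequences below are written 5′ to 3′ with the seed in capitals.
let-7a-5p: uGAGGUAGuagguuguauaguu
let-7d-5p: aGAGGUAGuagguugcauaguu
let-7g-5p: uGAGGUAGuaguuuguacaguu
let-7i-5p: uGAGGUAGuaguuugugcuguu
miR-98-5p: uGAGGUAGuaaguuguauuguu
let-7j: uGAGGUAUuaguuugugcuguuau
The let-7a copy shown lies at chr13:48538239-48538260 on the minus strand, beside let-7d at chr13:48536078-48536099. The let-7g copy lies at chr9:106178846-106178867 and let-7i at chr10:122985698-122985719.

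The target sites that the results return to are given next, as 22 bases of the sense strand of the longest annotated 3′ UTR (GENCODE M21 transcripts, GRCm38), with the match to the seed in capitals. The match to bases 2 to 8 reads CTACCTC in the messenger strand, and an A directly after it makes the 8-base site CTACCTCA. Only the sense strand of the UTR was searched, and an 8-base site is also counted as a match to CTACCTC.
Hmga2: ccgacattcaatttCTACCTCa
Lin28b: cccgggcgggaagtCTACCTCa
Igf2bp2: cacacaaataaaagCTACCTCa
Igf2bp3: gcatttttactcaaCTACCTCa
Cdc34: cctcaggcgacagaCTACCTCa
Tgfbr1: ggaggctggttgttCTACCTCa
Arid3b: atttcaataaagctCTACCTCt
Nras: cctcttcagaataaCTACCTCc
These sites lie in 3′ UTR exons at chr10:120364224-120364245 (Hmga2), chr10:45381022-45381043 (Lin28b), chr16:22059473-22059494 (Igf2bp2), chr6:49086787-49086808 (Igf2bp3), chr10:79688113-79688134 (Cdc34), chr4:47410829-47410850 (Tgfbr1), chr9:57790361-57790382 (Arid3b) and chr3:103064360-103064381 (Nras). Cdc34, Tgfbr1 and Nras are read from the plus strand and the other 5 from the minus strand. In Arid3b and Nras the base after the match is not A.

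Matches to CTACCTC were held by 29 of the 35 genes (82.9%), against 1261 of 12131 tested genes with an annotated 3′ UTR (10.4%). The 8-base site was held by 22 of the 35 (62.9%), against 3.69% of the tested genes. The genes had been listed as let-7 targets partly because of such sites, so this is a description of the list. The 3′ UTRs of the 35 were also longer, with a median of 2474 bases against 1142 for the tested genes. At least 2 matches were found in 8 genes (22.9% against 1.33%), and the matches numbered 8 in Nr6a1 and 4 each in Hmga2, Lin28b, Igf2bp1 and Trim71. In Trim71 all 4 matches were 8-base sites.

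The 6 genes without CTACCTC were Mycn, Peg10, Ccnd1, Ccnd2, Cdk6 and Hras. Of these, all but Hras held the shorter match TACCTCA, which pairs with bases 2 to 7 and ends in A and which was present in 31 of the 35 genes and in 11.2% of the tested genes with a 3′ UTR. The D-type cyclin genes are shown because Ccnd2 had the greatest fold change of the members and both were among the 5 with an unadjusted p under 0.05, while lacking the full match.
Ccnd2, first of 3 such matches: aaagagagtattcttTACCTCA
Ccnd1, its single such match: ggttcctgttcacaaTACCTCA
The Ccnd2 match lies at chr6:127128300-127128321 and the Ccnd1 match at chr7:144930598-144930619, both on the minus strand. The map of matches along the 3′ UTRs shows them from near the stop codon, as in Fas, Lin28b, Yod1, Hmga2 and Tgfbr1, to within the last bases, as in Arid3b.

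**Figure D1:**
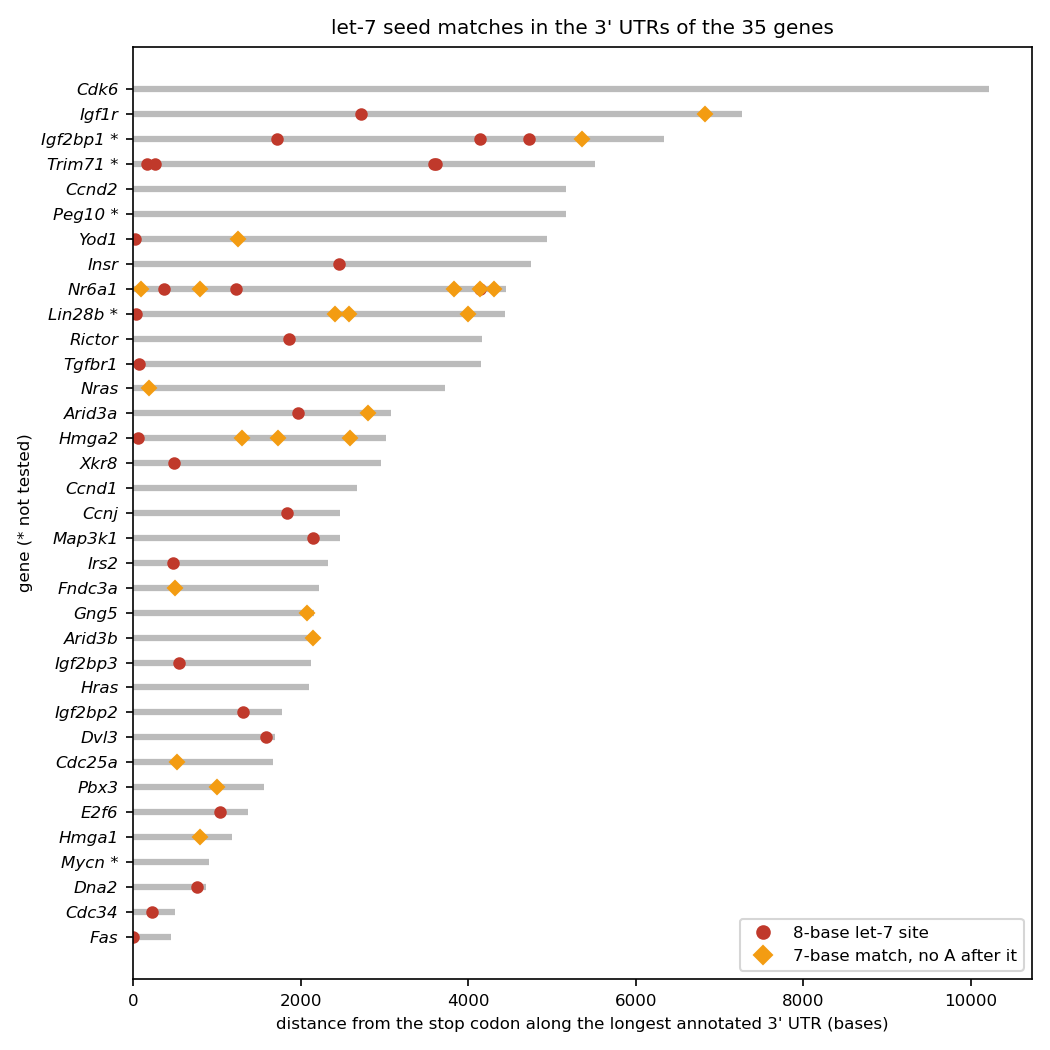
Positions of let-7 seed matches along the longest annotated 3′ UTR of each of the 35 genes, in bases from the stop codon, with the 3′ UTR drawn as a grey bar and genes ordered by its length; circles mark 8-base sites, diamonds 7-base matches with no A after them, and asterisks the genes not tested. Nr6a1 holds 8 such matches, and Cdk6, with the longest 3′ UTR of the 35 (10217 bases), holds none of the marked kinds.

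Depth was similar in all libraries, at 42974524 to 51152370 uniquely placed reads on genes, and expression is given as CPM, the read count relative to the library total after trimmed-mean (TMM) scaling. Dicer1, the deleted gene, stood at 7.85, 6.86 and 7.85 CPM in the Dicer1-deleted libraries and at 15.7, 15.8, 18.6 and 17.1 CPM in the controls. The difference was −1.16 ± 0.23 on the log2 scale (SE), with an adjusted p of 0.150 by edgeR's quasi-likelihood test and 4.96e-05 by DESeq2, and the groups did not overlap. Recombination of a conditional allele deletes a segment of Dicer1 and leaves its other exons to be counted. The source of the remaining Dicer1 reads in the Dicer1-deleted libraries was not tested. Dicer1-deleted replicate 2 stood apart from the other 6 libraries. It set the first principal component (36.5% of the variance), and its mean correlation with the others was 0.901, where theirs were 0.928 to 0.935. The macrophage markers checked against the label were present in every library, with a summed level of 6076 to 8356 CPM in the Dicer1-deleted group and 6236 to 8312 CPM in the controls. One of these 8 markers, Lyz2, the gene at whose locus LysM-Cre is inserted, stood at 53.0, 67.2 and 50.7 CPM against 134, 212, 107 and 103 CPM without overlap (log2 fold change −1.29 ± 0.32, adjusted p 0.235 by edgeR and 0.0144 by DESeq2), although both groups carry the Cre allele.

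Most of the tested genes of this list were slightly higher in the Dicer1-deleted macrophages, and none passed the test. Of the 35 genes, 33 were listed in at least 1 library and 30 passed the filter on low counts. edgeR called 0 of the 30 at an adjusted p under 0.05, against 0.0247% of all 16226 genes tested, and the smallest adjusted p among the 30 was 0.375. DESeq2 also called 0 of the 30, against 2.5% of all genes. At an unadjusted edgeR p under 0.05, 5 of the 30 were higher and none lower, where 3.88% of all genes were higher and 8.01% passed in either direction. The 5 were Ccnd2, Cdc34, Igf2bp2, Ccnd1 and Tgfbr1. The fold change was positive for 24 of the 30 (80.0%), against 52.6% of all genes tested. The same count, described below, was 11 of 22 for other reported let-7 targets and 13 of 16 for proliferation genes. The median log2 fold change of the 30 was 0.36, against 0.03 over all genes tested, with a range from −0.47 to 1.51. Within the libraries of a single L code, a label in the sample titles whose meaning is not given, that median was 0.1887 for code 5 (1 Dicer1-deleted and 3 control libraries) and 0.6007 for code 4 (2 and 1). Over all genes tested in the same fits, the medians were −0.0701 for code 5 and 0.0625 for code 4. Single genes had standard errors of 0.23 to 0.62 on that scale, with a median of 0.37.

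Groups that did not overlap were found for 3 of the 30, Igf2bp2, Igf2bp3 and Ccnd2, all higher in the Dicer1-deleted libraries, against 3.86% of all genes, and no member was lower without overlap, against 5.44% of all genes. Without Dicer1-deleted replicate 2, 9 members were higher without overlap, against 10.5% of all genes. Those 9 were Igf2bp2, Igf2bp3, Ccnd1, Ccnd2, Dna2, Nras, Tgfbr1, Map3k1 and Fndc3a. The count of positive members was 24 and the count at an unadjusted p under 0.05 was 5 without that library, as with it. The matching shares of all genes without that library are not given here.

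**Figure D2:**
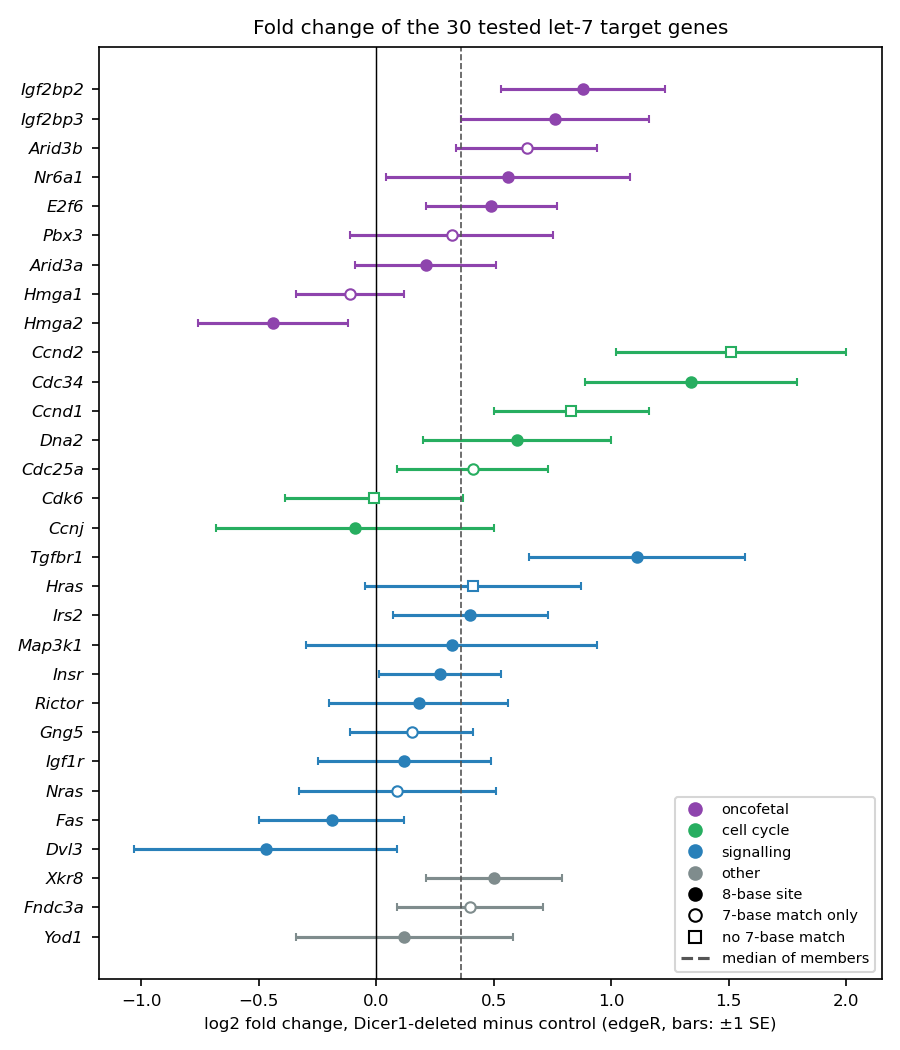
Log2 fold change (Dicer1-deleted minus control, horizontal axis) of the 30 tested genes by edgeR, with bars of 1 SE, grouped by role. Filled circles hold an 8-base site, open circles the 7-base match CTACCTC only and squares no CTACCTC. 24 of the 30 points lie right of 0, and the dashed line marks their median of 0.36.

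The name oncofetal is used here as a group label, since not all genes under it are limited to fetal or germ cells. Among these 14 genes, mostly for chromatin proteins, RNA-binding proteins and transcription factors, 9 were tested. Of these, 7 had a positive fold change, with a median of 0.49. Of the other 5, none reached 1 CPM in any library. Lin28b, which blocks let-7 maturation, and Mycn, a MYC-family transcription factor, were listed in none of the 7 libraries; since both mates are counted, the limit that a count of 0 allows is 3 read pairs or 6 counts, which is 0.117 to 0.14 CPM of the unscaled library totals and covers counting error only. Igf2bp1 had reads in control replicate 4 only, at 0.456 CPM. Trim71, a stem-cell RNA-binding ubiquitin ligase, and Peg10, an imprinted gene derived from a retrotransposon, reached at most 0.254 and 0.252 CPM in any library. No difference between groups was detectable for these 5 at this depth.

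The IGF2 messenger-RNA-binding proteins that were expressed were both higher in the Dicer1-deleted libraries. Igf2bp2 (ENSMUSG00000033581), which binds and stabilizes growth-related messenger RNAs, stood at 11.4, 7.57 and 10.2 CPM in the Dicer1-deleted libraries and at 2.98, 4.62, 6.49 and 7.06 CPM in controls 1 to 4. The lowest Dicer1-deleted library was above the highest control, the log2 fold change was 0.88 ± 0.35, and the adjusted p was 0.520 by edgeR and 0.294 by DESeq2. Igf2bp3, its mainly fetal relative, stood at 2.78, 1.63 and 1.79 CPM against 0.964, 1.44, 1.02 and 1.46 CPM. The Igf2bp3 groups did not overlap, by a narrow margin, and the log2 fold change was 0.76 ± 0.40 (edgeR adjusted p = 0.736). The Igf2bp3 exons overlap those of Malsu1 on the opposite strand, and no source used here says that reads were counted by strand. Such opposite-strand overlaps were found for 12 of the 35 genes, Ccnd2 and Ccnd1 among them.

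Hmga2 and Hmga1, architectural chromatin proteins, were the oncofetal genes with negative values. Hmga2, a classic let-7 target, stood at 3.94, 4.27 and 4.18 CPM in the Dicer1-deleted libraries and at 4.95, 7.63, 3.79 and 6.11 CPM in the controls. Its Dicer1-deleted values all lay within the control range, and the log2 fold change was −0.44 ± 0.32 (edgeR adjusted p = 0.916). Hmga1 stood at 31.4, 34.7 and 36.0 CPM against 32.4, 43.5, 32.6 and 38.0 CPM, with overlapping groups and a log2 fold change of −0.11 ± 0.23, the smallest standard error of the 30.

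The other oncofetal transcription factors overlapped between groups. Arid3b, an AT-rich interaction domain protein, stood at 13.3, 10.9 and 9.90 CPM against 5.41, 6.28, 6.85 and 10.7 CPM. Control replicate 4 alone reached the Dicer1-deleted range, and the log2 fold change was 0.64 ± 0.30 (edgeR adjusted p = 0.678). Its relative Arid3a stood at 6.81, 7.72 and 5.25 CPM against 5.87, 6.33, 6.64 and 3.97 CPM, a difference of 0.21 ± 0.30. E2f6, a repressor of the E2F family, stood at 7.02, 12.1 and 11.7 CPM against 7.25, 8.35, 6.31 and 7.25 CPM, with Dicer1-deleted replicate 1 among the controls (log2 fold change 0.49 ± 0.28). Pbx3, a homeodomain protein, stood at 3.61, 7.32 and 7.94 CPM against 5.41, 8.12, 3.94 and 2.69 CPM, and the highest value was a control. Nr6a1, an orphan nuclear receptor of germ cells and the gene with the most seed matches, ranged from 1.22 to 4.95 CPM in the Dicer1-deleted libraries and from 1.01 to 2.69 CPM in the controls (log2 fold change 0.56 ± 0.52).

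The 7 cell cycle genes, all tested, held the members with the greatest fold changes, with 5 positive and a median of 0.60. Ccnd2 (ENSMUSG00000000184), a D-type cyclin that activates CDK4 and CDK6 in G1, stood at 76.1, 74.0 and 56.6 CPM in the Dicer1-deleted libraries and at 20.1, 10.3, 50.8 and 15.8 CPM in the controls. The means were 68.9 ± 10.7 CPM (SD, n = 3) and 24.3 ± 18.2 CPM (SD, n = 4). The Dicer1-deleted values were all higher than the controls, although control replicate 3 came close. Its log2 fold change of 1.51 ± 0.49 had an adjusted p of 0.375 by edgeR and 0.0884 by DESeq2, and it was 2.16 without control replicate 3. Ccnd1, another D-type cyclin, stood at 39.4, 25.4 and 50.5 CPM against 23.1, 20.7, 29.3 and 13.6 CPM. Dicer1-deleted replicate 2 lay below control replicate 3, and the log2 fold change was 0.83 ± 0.33 (edgeR adjusted p = 0.536). Of the reads assigned to Ccnd1, 38.1% were multiply placed and left out here; with them added, the value was 0.81.

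Cdk6, the kinase partner of the D cyclins, did not share their pattern. It stood at 152, 80.9 and 224 CPM in the Dicer1-deleted libraries and at 118, 121, 218 and 158 CPM in the controls, a difference of −0.01 ± 0.38. The fold change of Cdk6 against that of the cyclins was not tested. Cdc34, a ubiquitin-conjugating enzyme of cell cycle regulators, stood at 7.85, 24.4 and 8.37 CPM against 5.45, 7.94, 3.83 and 4.19 CPM. One library, Dicer1-deleted replicate 2, carried most of this difference: the log2 fold change was 1.34 ± 0.45 (edgeR adjusted p = 0.417) with it and 0.59 without it. Its close copy Cdc34b had a log2 fold change of 1.13 ± 0.41; 1.65% of the reads assigned to Cdc34 were multiply placed, and with them added its value was 1.33.

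The remaining cell cycle genes overlapped between groups. Dna2, a nuclease and helicase of replication, stood at 22.3, 12.1 and 30.2 CPM against 10.5, 9.02, 21.7 and 15.6 CPM (log2 fold change 0.60 ± 0.40). Cdc25a, a phosphatase that activates cyclin-dependent kinases, stood at 4.32, 8.03 and 7.34 CPM against 4.40, 6.46, 4.56 and 4.28 CPM (0.41 ± 0.32). Ccnj, a cyclin of the J type, ranged from 1.52 to 4.40 CPM in the Dicer1-deleted libraries and from 0.898 to 5.83 CPM in the controls, and its value of −0.09 ± 0.59 had one of the widest errors of the 30.

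**Figure D3:**
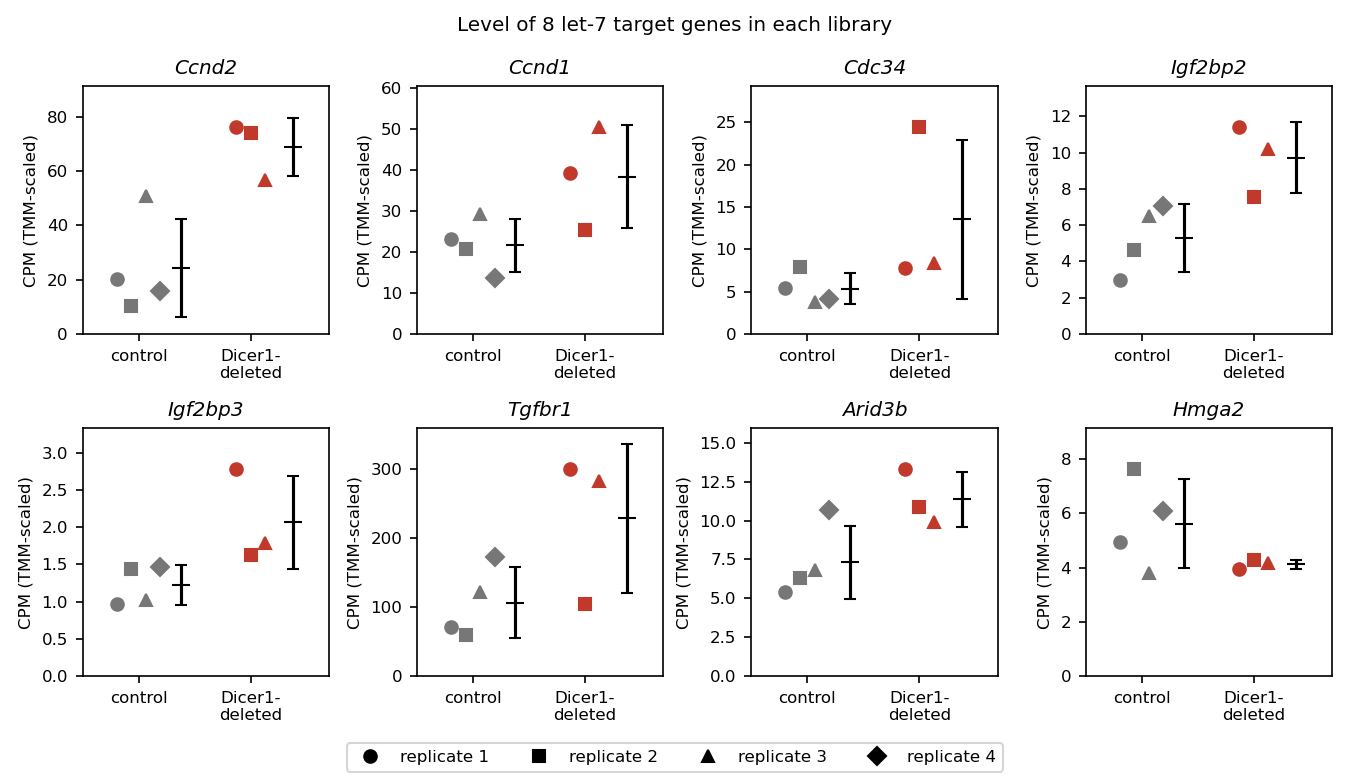
Level in each library (CPM, linear axis from 0) of 8 let-7 targets, controls in grey and Dicer1-deleted in red, with the replicate given by the symbol and the mean ± SD of each group in black. Igf2bp2, Igf2bp3 and Ccnd2 show no overlap between groups, the Cdc34 difference rests largely on Dicer1-deleted replicate 2 at 24.4 CPM, and Hmga2 lies within the control range.

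The 11 signalling genes, all tested, included 9 with a positive fold change and a median of 0.18. The receptors differed among themselves. Tgfbr1 (ENSMUSG00000007613), the type I receptor kinase for TGF-beta, stood at 299, 104 and 282 CPM in the Dicer1-deleted libraries and at 71.5, 59.8, 122 and 172 CPM in the controls. The means were 228.5 ± 107.8 CPM (SD, n = 3) and 106.2 ± 51.2 CPM (SD, n = 4). Replicates 1 and 3 of the Dicer1-deleted group were above every control and replicate 2 was within the control range. The log2 fold change was 1.11 ± 0.46, with an adjusted p of 0.578 by edgeR and 0.317 by DESeq2. Without Dicer1-deleted replicate 2 it was 1.45, with an adjusted p of 0.297 by edgeR and 0.0328 by DESeq2. That was the single call among the members under any alternative run, 1 of 30, where the same fit called 2.01% of all genes.

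The other receptors were close between groups. Fas, the death receptor, stood at 32.5, 35.7 and 37.4 CPM against 33.1, 64.0, 30.5 and 33.5 CPM, and control replicate 2 stood apart (−0.19 ± 0.31). Insr, the insulin receptor, stood at 8.68, 8.94 and 12.7 CPM against 7.34, 7.85, 9.48 and 8.93 CPM (0.27 ± 0.26). Igf1r, the receptor for insulin-like growth factor, ranged from 2.32 to 5.59 CPM and from 3.32 to 5.07 CPM in the same order of groups (0.12 ± 0.37). Irs2, the adaptor that carries insulin receptor signals, stood at 6.19, 7.98 and 3.80 CPM against 4.32, 3.46, 4.70 and 5.65 CPM (0.40 ± 0.33).

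Of the RAS genes, long known as let-7 targets that carry growth signals, neither differed beyond its spread. Nras, by level per kilobase of exon the most abundant of the 35 in the controls at 82.1 CPM per kb, stood at 595, 212 and 593 CPM against 317, 304, 544 and 584 CPM. Its Dicer1-deleted libraries included both the lowest and the highest value (0.09 ± 0.42). Hras stood at 3.28, 13.2 and 4.57 CPM against 6.12, 5.43, 5.32 and 4.19 CPM, and its log2 fold change turned from 0.41 ± 0.46 to −0.43 without Dicer1-deleted replicate 2. Map3k1, a kinase upstream of JNK and second to Nras per kilobase (24.3 CPM per kb in controls), stood at 296, 55.8 and 326 CPM against 101, 85.5, 250 and 288 CPM. The lowest of the 7 Map3k1 values was thus Dicer1-deleted replicate 2, and the difference was 0.32 ± 0.62, the widest error of the 30.

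Among the intracellular signalling components, Rictor, a subunit of the mTORC2 kinase complex, stood at 31.0, 16.7 and 29.3 CPM against 14.2, 15.2, 28.3 and 33.0 CPM (0.18 ± 0.38). Gng5, a G-protein gamma subunit, stood at 36.8, 43.3 and 38.9 CPM against 32.2, 48.0, 28.0 and 34.5 CPM (0.15 ± 0.26). Dvl3, a scaffold of Wnt signalling, stood at 8.55, 2.08 and 9.09 CPM against 5.70, 4.62, 11.7 and 14.4 CPM, and its log2 fold change of −0.47 ± 0.56 was the lowest of the 30. Each of these overlapped between groups.

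The last 3 genes were all positive, with a median of 0.40. Fndc3a, a membrane protein with fibronectin type III domains, stood at 103, 79.6 and 96.6 CPM against 48.0, 50.0, 91.0 and 92.7 CPM (0.40 ± 0.31). Controls 1 and 2 were below every other library for this gene. Yod1, a deubiquitinase, stood at 10.8, 5.39 and 11.1 CPM against 6.12, 3.73, 9.55 and 14 CPM (0.12 ± 0.46). Xkr8, a scramblase that exposes phosphatidylserine in dying cells, stood at 7.56, 12.9 and 7.43 CPM against 7.46, 6.64, 5.76 and 6.43 CPM (0.50 ± 0.29), and Dicer1-deleted replicate 3 lay just below control replicate 1.

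Per kilobase of exon, the expressed targets ranged widely in the controls. After Nras and Map3k1 came Fas at 19.5, Hmga1 at 17.2, Tgfbr1 at 16.3, Gng5 at 12.9, Cdk6 at 11.0 and Fndc3a at 7.08 CPM per kb. Ccnd1 was at 4.60, Cdc34 at 3.41 and Ccnd2 at 2.58 CPM per kb. At the low end of the tested genes were Igf2bp3 at 0.149 and Nr6a1 at 0.183 CPM per kb.

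The members also varied between libraries of the same group. Relative to the mean of the controls, the median member stood at 0.38, 0.26 and 0.54 on the log2 scale in Dicer1-deleted replicates 1 to 3. In the controls it stood at −0.17, −0.10, 0.21 and 0.13 in replicates 1 to 4. Above the control mean were 22, 18 and 24 of 30 members in the Dicer1-deleted libraries, and 7, 13, 19 and 19 in the controls. Control replicates 3 and 4 thus lay nearer the Dicer1-deleted libraries than control replicates 1 and 2 did. For Tgfbr1, Map3k1, Nras, Cdk6 and Dvl3, and for several other members such as Igf2bp2 and Ccnd1, Dicer1-deleted replicate 2 was the lowest of its group, as the heat map shows. Across the 30 members, that library was the lowest of all 7 for 4 and the highest for 7. Over all genes tested the shares were 30.2% and 26.3%.

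**Figure D4:**
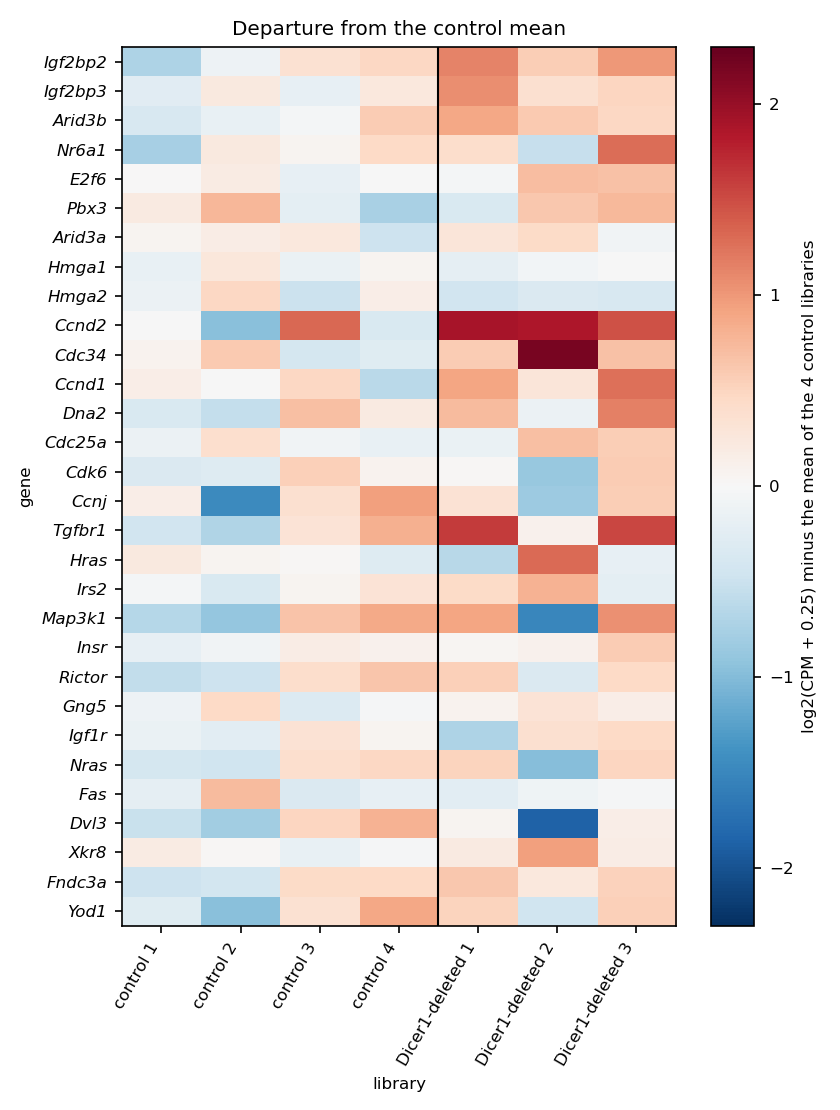
Departure of each of the 30 tested genes (rows, grouped by role) from the mean of the 4 control libraries in each library (columns), as log2(CPM + 0.25), red above and blue below. Control replicate 1 has 7 of 30 genes above the control mean and Dicer1-deleted replicate 3 has 24.

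As a single number, the mean log2(CPM + 1) of the 30 members above 1 CPM in at least 3 libraries was 4.18, 3.98 and 4.34 in Dicer1-deleted replicates 1 to 3 and 3.65, 3.70, 4.00 and 4.01 in the controls. The means were 4.17 ± 0.18 (SD, n = 3) and 3.84 ± 0.19 (SD, n = 4), a difference of 0.33. The groups overlapped, because Dicer1-deleted replicate 2 lay below control replicates 3 and 4. For all 13439 tested genes above 1 CPM in at least 3 libraries the same difference was −0.0094. With 1 library left out, the difference for the members ran from 0.24 (without Dicer1-deleted replicate 3) to 0.42 (without Dicer1-deleted replicate 2).

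**Figure D5:**
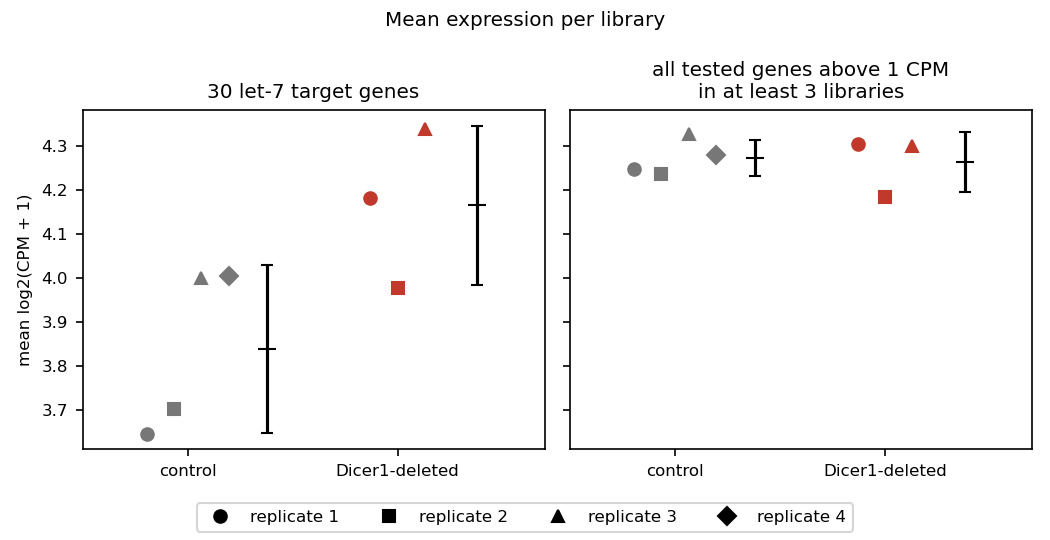
Mean log2(CPM + 1) per library of the 30 let-7 targets (left) and of all tested genes above 1 CPM in at least 3 libraries (right), with the replicate given by the symbol and the group mean ± SD in black. The left panel shows Dicer1-deleted replicate 2 at 3.98 below control replicates 3 and 4 at 4.00 and 4.01.

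Fold changes were also set beside the seed matches. Of the 26 tested members with CTACCTC, 21 were positive, and their median was 0.32 on the log2 scale. Of the 4 tested members without it (Ccnd1, Ccnd2, Cdk6 and Hras), 3 were positive, and the median was 0.62. Members with an 8-base site and members with the 7-base match only had the same median of 0.32 (19 and 7 genes). Over all tested genes, the median was 0.042 with an 8-base site and 0.056 with the 7-base match only. It was 0.01 with TACCTCA only and 0.0077 with no match of any of the 3 kinds. Of the 3 tested members with TACCTCA only (Ccnd1, Ccnd2 and Cdk6), 2 were positive, with a median of 0.83. The 161 tested genes with at least 2 matches, which include 5 of the members, had a median of 0.12, and the members among them also 0.12. The number of CTACCTC matches thus did not order the members: Nr6a1 with 8 stood at 0.56 and Hmga2 with 4 at −0.44. Ccnd2, with no CTACCTC but 3 TACCTCA matches, stood at 1.51.

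Of the 14 genes listed for let-7 biogenesis and Argonaute function, 13 were tested, and 6 had a positive fold change. Dicer1 alone was called, by DESeq2 and not by edgeR. Khsrp, which promotes the processing of let-7 precursors, stood at 24.2, 25.7 and 24.2 CPM against 12.7, 18.2, 16.8 and 13.7 CPM without overlap (log2 fold change 0.69 ± 0.23, edgeR adjusted p = 0.419). Tnrc6a, a partner of Argonaute in silencing, was at 0.45 ± 0.22, also without overlap. Lin28a was at most 0.146 CPM in any library. Host transcripts of let-7 hairpins in the files were Huwe1 and Wdr82, at 0.03 ± 0.29 and −0.02 ± 0.22, and Mir99ahg, at 0.102 to 1.15 CPM against 0.547 to 4.34 CPM (−2.14 ± 0.86, edgeR adjusted p = 0.536).

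A further list of 32 reported let-7 targets outside the 35 gave 22 tested genes, of which 11 were positive, with a median of 0.01 and 0 calls by edgeR or DESeq2. At an unadjusted edgeR p under 0.05 there were 2 of 22, both higher, where 3.88% of all genes were higher and 8.01% passed in either direction. They were Il10, the anti-inflammatory cytokine, at 15.9, 20.5 and 12.3 CPM against 4.70, 12.9, 10.5 and 4.79 CPM (0.98 ± 0.41), and Socs1, an inhibitor of cytokine signalling, which was low, at 0.171 to 2.54 CPM against 0.0898 to 0.319 CPM. Bach1, a transcriptional repressor, was at 0.41 ± 0.22, with groups that did not overlap. Since cell cycle genes led the 35, 16 proliferation genes were read beside them. Of these, 13 were positive, with a median of 0.12 and 0 calls by either tool, and their summed level overlapped between groups (724 to 1076 CPM against 718 to 1010.8 CPM).

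Markers of other cells that the sort could hold were low beside the macrophage sum, and 2 of 7 sums did not overlap between groups. The 5 endothelial markers summed to 43.3 to 77.1 CPM in the Dicer1-deleted libraries and 8.08 to 24.4 CPM in the controls, most of it Pecam1, with Tek at most 0.126 CPM. The log2 fold change of Pecam1 was 2.57 ± 0.46, with an adjusted p of 0.111 by edgeR and 2.67e-05 by DESeq2. The 5 B-cell markers summed to 15.1 to 27.6 CPM against 6.43 to 11.1 CPM, nearly all Cd79b, with Pax5 at most 0.0508 CPM. Cd79b had a log2 fold change of 1.34 ± 0.33, with an adjusted p of 0.226 by edgeR and 0.0161 by DESeq2. The other sums overlapped between groups, although single markers within them differed. By DESeq2, Xcr1 was higher (2.64 to 5.51 against 0.474 to 1.5 CPM, adjusted p = 0.000756), as was Nkg7 (adjusted p = 0.041), while Ccr7 was lower (adjusted p = 0.00999); edgeR called none of them. The sums were 7.42 to 14.3 against 6.09 to 9.06 CPM for 9 T and NK markers, 26.7 to 62.4 against 21.4 to 29.4 CPM for 6 neutrophil markers (Ly6g at most 0.102 CPM), 6.81 to 12.6 against 7.63 to 139 CPM for 6 dendritic markers, 5.79 to 9.09 against 2.11 to 14.1 CPM for 7 epithelial markers (Cldn4 at 0), and 20.0 to 29.3 against 16.3 to 33.7 CPM for 7 fibroblast markers. Fewer cells of a type and less RNA per cell cannot be told apart in these bulk samples, and the part of other cells in the values of Ccnd2, Igf2bp2 and the other leading members was not tested.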

How the data were processed

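Libraries of 3 Dicer1-deleted and 4 control samples were compared; replicate numbers follow sample order and pair nothing. Each library's table, per the file headers, holds the authors' uniquely placed read counts, expected counts that add shared reads by fraction, and RPKM. All deposited unique counts were even numbers, as where both mates are counted, so they are not independent molecules. Bowtie2 is named in the submitters' processing notes; its version, the build, the annotation, the counter and its strand setting were not given in the sources used here. The deposited RPKM values were not tested, and the authors' expected counts, rounded, served as an alternative. RNA was amplified with the SMARTer kit and libraries were made with Nextera XT, per the labels' protocols.

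Ensembl identifiers were matched to GENCODE M21 symbols (21813 of 24084); all 35 target genes matched. Counts were filtered with filterByExpr (16226 genes kept), TMM-scaled and tested with edgeR 4.0.16 (quasi-likelihood, Benjamini-Hochberg adjustment over all genes, threshold 0.05) in R 4.3.3, after the procedure was tested on simulated data; DESeq2 1.42.0 was an alternative. edgeR's common dispersion of 0.203 corresponds to 45.1% variation between libraries. Log2 fold changes take the control group as the reference and carry standard errors. Each edgeR standard error was derived as the absolute log2 fold change divided by the square root of the quasi-likelihood F value. For seed matches, each gene's longest GENCODE 3′ UTR was read.

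The members, their roles, the other lists and the tests were chosen with earlier results of these data known. Every member is accounted for. Values per library are given for tested members whose groups did not overlap, whose unadjusted edgeR p was under 0.05, whose mean reached 5 CPM, or which are among Hmga2, Hmga1, Lin28b, the Igf2bp genes, Trim71 and Cdc25a. From the other lists of let-7 genes and from the proliferation list, at most 4 genes with the lowest unadjusted p could be named, plus Dicer1; Lin28a and the marker genes were named after their values were seen. Alternatives covered scaling, count filter, tool, a covariate for the L code in the sample titles, multiply placed reads, read pairs, transcript length and each library left out in turn. The meaning of the L code is not given in the labels. Mirlet7bhg and Mir100hg were not analysed here.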

Additional observations from a re-analysis of the deposited data

Results flagged for a closer look

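In 2 of 31 sets of control values examined, 1 library stood far from the other 3, where chance flags about 1 in 20. Control replicate 2 had 6.463 CPM of Cdc25a, with a gap to its neighbour of 0.875 of the whole control range. The same library had 63.96 CPM of Fas, with a gap of 0.91 of the range, and without it the log2 fold change of Fas was 0.14 in place of −0.19.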

How the results depend on the processing

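Of 554 recomputed fold changes of single members, 516 kept their sign and 38 changed it, and 14 members, 13 of them positive, kept their sign under every alternative. edgeR called 0 members under every alternative with a test, and DESeq2 without Dicer1-deleted replicate 2, added after seeing the data, called 1, Tgfbr1, in a fit that called 338 of 16781 genes (2.01%). Positive members numbered 11 of 14 tested above 10 CPM in 3 libraries, 26 of 33 without a count filter and 18 of 31 with L code 5 alone. Under the other alternatives they numbered 20 to 25 of 30 or 31. The share of all genes with a positive fold change is given here for the main fit only. The median log2 fold change of members was 0.1887 in the libraries with L code 5 alone, against −0.0701 over all genes tested there. It was 0.6007 in those with L code 4 alone, against 0.0625. Members at an unadjusted p under 0.05, a count added after seeing the data, numbered 2 of 30 without TMM factors and 3 of 14 above 10 CPM. With 1 library left out they numbered 2 to 5 of 30 or 31. The shares of all genes at that threshold in these fits are not given here. Members higher without overlap numbered 4 to 9 with 1 library left out, also added later, against 4.86% to 10.5% of all genes. When control replicate 3 was left out, 1 member, Hmga2, was lower without overlap, against 7.06% of all genes. With the L code as a covariate, Pbx3 was −0.12, Igf1r −0.12, Hras −0.01, Cdk6 0.10 and Ccnj 0.69. In L code 5 alone, Pbx3 was −0.19, E2f6 −0.02, Cdc25a −0.07, Igf1r −0.91, Insr −0.02 and Hras −0.70. In L code 4 alone, Pbx3 was −0.09, Cdk6 0.33, Ccnj 1.72, Gng5 −0.23 and Dvl3 0.27. By DESeq2 without Dicer1-deleted replicate 2, Cdk6 was 0.29, Ccnj 0.24, Igf1r −0.02 and Hras −0.42. With 1 library left out, ranges that crossed 0 were −0.16 to 0.01 for Hmga1, −0.06 to 0.93 for Nr6a1, −0.40 to 0.29 for Cdk6, −0.40 to 0.29 for Ccnj, −0.31 to 0.14 for Fas, −0.10 to 0.42 for Igf1r, −0.12 to 0.44 for Nras, −0.43 to 0.75 for Hras, −0.04 to 0.78 for Map3k1 and −0.11 to 0.49 for Yod1. The cause of these changes was not tested. Over all genes, edgeR called 4, and 0 to 42 under the alternatives (42 without a count filter), while DESeq2 called 405. L code 4 held 1 control and L code 5 held 1 Dicer1-deleted library, so values within a code have no test of calls here. At 42974524 to 51152370 reads per library, the 5 untested members were at or near the limit of detection.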
